A study of Mus musculus with 9 samples.

Results

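The comparison described here sets the ovaries of the caulerpin group against those of the cyclophosphamide group. It covers 6 of the 9 libraries of the series, those titled CAU1 to CAU3 and CTX1 to CTX3, which were taken by their titles and treatment labels. Of the 19517 genes in the authors' deposited table, 19245 had a value in this comparison and 272 were blank.

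RNA-seq was run on the ovaries of tumor-bearing female mice. They were BALB/c nude mice, which have no thymus and so lack mature T cells but keep natural killer cells, macrophages and other myeloid cells, and they carried xenografts of the human breast cancer line MDA-MB-231. The CTX group was given cyclophosphamide, an alkylating drug that crosslinks DNA and damages ovarian follicles. The CAU group was given caulerpin, an alkaloid of green algae, and its labels do not say whether cyclophosphamide was given as well. The UT group had no treatment. The sources used here give no dose, time or age of the mice. The 3 libraries of each group are numbered as replicates and not tied to separate mice, and the p-values thus rest on the spread between samples that may be technical replicates.

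For each gene the table gives DESeq2's log2 fold change, p-value and adjusted p, and no value for single libraries, so values per sample and the sequencing depth are not shown here. The headers do not state the numerator. Of the pair of groups in a column's name, the later one was taken as the numerator, so a positive value means more RNA in CAU than in CTX, and the opposite reading would turn every sign. "Rose" and "fell" are used for genes with a deposited adjusted p under 0.05. The SE of a log2 fold change was computed here from the fold change and its p-value, and is called the implied SE. In whole-tissue RNA, fewer cells of a type and less RNA per cell cannot be told apart.

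Some background helps in reading the gene families. MHC class II molecules are pairs of alpha and beta chains on antigen-presenting cells. They are held by the invariant chain Cd74 until H2-DM exchanges its remnant for a peptide, and their genes are switched on together by the coactivator Ciita, which acts through the X and Y boxes of their promoters. The transcription factor p53 is stabilised by DNA damage and raises genes that stop the cell cycle or promote cell death, among them the cyclin-dependent kinase inhibitor Cdkn1a. Retinoic acid is made by Aldh1a enzymes and degraded by Cyp26 enzymes, and Cyp26a1 is itself a classical target of the retinoic acid receptors. Granzymes are proteases stored in the granules of cytotoxic lymphocytes, which in athymic mice are mainly natural killer cells.

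Promoter sequences are shown for genes of the families described first, since these families have well-known promoter elements. They are RefSeq sequences of build GRCm38.p6, read in the direction of transcription, and the capitals mark the letters searched for. In the MHC class II promoters these are GCAAC of the X box and GATTGG of the Y box, or its reverse CCAATC. H2-Aa and H2-Eb1 rose, while H2-Ob, H2-Oa and H2-DMb1 did not pass the test. Each of these stretches runs from position -110 to -20, counted from the annotated start, at chr17:34287843-34287933 on the minus strand for H2-Aa and, on the plus strand, at chr17:34305757-34305847 for H2-Eb1, chr17:34238795-34238885 for H2-Ob, chr17:34092269-34092359 for H2-Oa and chr17:34153081-34153171 for H2-DMb1.
H2-Aa: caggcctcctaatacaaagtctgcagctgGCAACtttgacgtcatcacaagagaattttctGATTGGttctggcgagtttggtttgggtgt
H2-Eb1: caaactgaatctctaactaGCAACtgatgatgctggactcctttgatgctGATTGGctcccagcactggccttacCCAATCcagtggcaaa
H2-Ob: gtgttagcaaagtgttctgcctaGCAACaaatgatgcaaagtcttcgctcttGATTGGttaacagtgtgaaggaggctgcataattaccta
H2-Oa: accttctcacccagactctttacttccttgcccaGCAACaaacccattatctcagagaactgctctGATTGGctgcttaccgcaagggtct
H2-DMb1: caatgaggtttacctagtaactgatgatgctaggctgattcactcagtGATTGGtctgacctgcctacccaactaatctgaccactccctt

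The Cyp26a1 promoter holds the letters AGTTCA 2 times, 5 bases apart, here read as TGAACT because they lie on the other strand. Such a direct repeat is the classical form of a retinoic acid response element. The stretch covers the 80 bases before the start used in the RefSeq promoter table, at chr19:37697728-37697807 on the plus strand. The RefSeq gene span begins further upstream, at 37697738, so both repeats lie within that span.
Cyp26a1: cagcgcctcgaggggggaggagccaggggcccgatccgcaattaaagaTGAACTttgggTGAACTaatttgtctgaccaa

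The p53 targets Cdkn1a and Ckap2, which both fell, are shown with matches to the decamer of the p53 response element in capitals. The Cdkn1a stretch precedes 1 of its 2 annotated starts, at chr17:29090899-29090978 on the plus strand. The Ckap2 stretch is 80 bases long and begins at position -220, at chr8:22185960-22186039 on the minus strand.
Cdkn1a: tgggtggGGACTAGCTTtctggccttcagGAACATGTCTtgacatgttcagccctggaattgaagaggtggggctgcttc
Ckap2: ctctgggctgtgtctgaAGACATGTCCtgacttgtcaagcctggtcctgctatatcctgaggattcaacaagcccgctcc

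The share of promoters that hold each searched run of letters differed widely. Searching 250 bases before the start on both strands, GATTGG was found in 16.6% of 27025 genes with a promoter entry, and in 8 of the 8 MHC class II genes that have one. GCAAC followed by GATTGG after 5 to 45 bases was found in 0.622% of all genes and in 5 of these 8 (H2-Aa, H2-Eb1, H2-Eb2, H2-Oa and H2-Ob). The exact AGTTCA repeat was found in 7 genes in all, 0.0259%, and Cyp26a1 was the only one of the 46 genes that rose and have an entry. These are the letters of the Cyp26a1 repeat shown above, so its own match was fixed beforehand. Other spellings of a retinoic acid response element were not searched, and the share is that of this spelling only. The p53 decamer was found in 8.2% of all genes and in 9 of the 22 p53 targets with an entry. Of these, Ccng1, Cdkn1a and Ckap2 fell, while Aen, Bax, Ei24, Mdm2, Polk and Sesn1 did not pass the test. Psrc1 and Sesn2, which fell, have an entry and no match. A match describes the letters only, and the absence of one says nothing about the factor.

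Between CAU and CTX, 85 genes passed the test, 0.442% of those tested. Of these, 60 rose in CAU (0.312%) and 25 fell (0.13%). The rises and the falls differed in size and in precision. The median log2 fold change of the 60 rises was 3.32 with a median implied SE of 0.76, and 42 of them were at least 4-fold (0.218% of genes tested). The median of the 25 falls was -0.59 with a median implied SE of 0.14, and 19 of them were under 2-fold. Over all genes the median was 0.00 and the median implied SE 0.18. The plot of size against precision shows both groups at the edges of the cloud of genes.

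**Figure D1:**
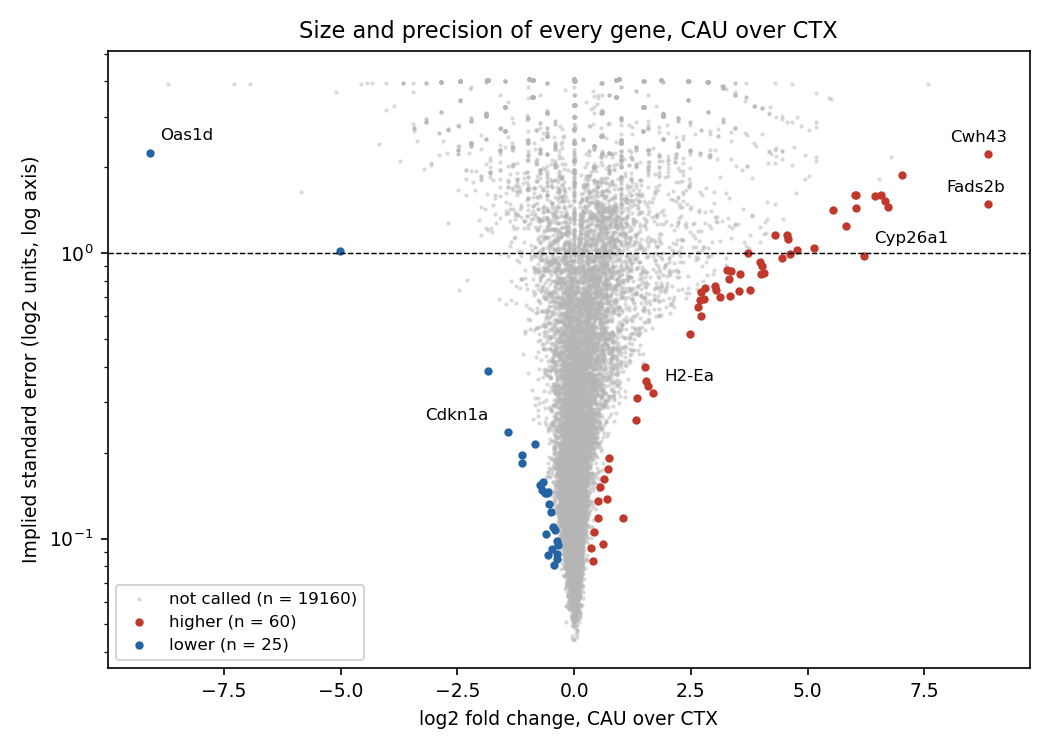
Log2 fold change of CAU over CTX (horizontal) against its implied SE in log2 units (vertical, log axis) for all 19245 genes, 1 point a gene. The 60 rises run up the right edge to large values with implied SEs near or above 1 (dashed line), while 23 of the 25 falls lie between -1.86 and -0.35 with implied SEs of at most 0.39, and Oas1d and Gm40453 stand apart on the left.

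The 42 rises of at least 4-fold were judged by the 95% interval from their implied SE. No rise of this size had an implied SE of 0.5 or less. In 25 genes the implied SE was between 0.5 and 1, with log2 fold changes of 2.49 to 6.21. In 16 genes it was between 1 and 2, with log2 fold changes of 4.31 to 8.86, and in Cwh43 it was 2.22. The largest point estimates were among the least precise, which the call itself brings about, since an imprecise gene passes only with a large fold. All 42 intervals stayed above 2-fold at their lower end. The choice of genes largely fixed this beforehand. Called genes of at least 4-fold, here with a z of 3.72 or more, cannot have a lower end far below 2-fold. The lower end was at least 4-fold in 26 genes, between 2-fold and 4-fold in 16, and at least 8-fold in 11. The median width of the interval was 3.70 log2 units.

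Cyp26a1, the retinoic acid hydroxylase, was the largest rise with an implied SE of at most 1 in the authors' deposited table, with a log2 fold change of 6.21 (implied SE 0.98, DESeq2 adjusted p = 1e-06), which is 74.1-fold with a lower end of 19.6-fold. The gene lies at chr19:37697738-37701536 in GRCm38.p6. Fads2b, a fatty acid desaturase family gene on chromosome 2, had the highest lower end of all, 62.0-fold, at a log2 fold change of 8.86 (implied SE 1.48, DESeq2 adjusted p = 6.35e-06). Its relatives Fads2, at 0.16 (implied SE 0.21), and Fads1, at 0.06 (implied SE 0.14), did not pass the test in the authors' deposited table. Cwh43, a GPI-anchor remodelling factor, had the same point estimate, 8.86, with an implied SE of 2.22, and its lower end was 22.7-fold. Point estimates of 465-fold and 463-fold thus carried an interval from 4.50 to 13.2 log2 units in Cwh43 and from 5.95 to 11.8 in Fads2b.

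S100g, a calcium-binding protein of uterus and intestine, was at 6.66 (implied SE 1.53, DESeq2 adjusted p = 0.0063) per the authors' deposited table, and Guca2b, which encodes uroguanylin, at 6.57 (implied SE 1.60, DESeq2 adjusted p = 0.016). The predicted gene Gm3696 was at 6.72 (implied SE 1.45). Among the more precise rises were the WAP-domain gene Wfdc18 at 4.03 (implied SE 0.90), the protein disulfide isomerase Agr2 of mucus-secreting cells at 3.98 (implied SE 0.93) and the alcohol dehydrogenase Adh7 at 3.76 (implied SE 0.74). The aspartic protease Napsa was at 3.56 (implied SE 0.84), the potassium channel subunit Kcne3 at 3.35 (implied SE 0.87), the peptide transporter Slc15a1 at 3.33 (implied SE 0.71) and the fucosyltransferase Fut2 at 3.31 (implied SE 0.81), all in the authors' deposited table. Their intervals all excluded a change under 2-fold, which the choice of called genes of at least 4-fold largely fixed beforehand.

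In the authors' deposited table, Ecrg4, a secreted peptide precursor, was at 4.44 (implied SE 0.96), the monooxygenase-like Moxd1 at 4.07 (implied SE 0.85) and the membrane protein Tmem132e at 4.0 (implied SE 0.85). Wif1, a secreted WNT antagonist, was at 3.73 (implied SE 1.00), the neuronal pentraxin Nptx1 at 3.53 (implied SE 0.74) and the p53-dependent arrest gene Rprm at 3.27 (implied SE 0.87). The sign of Rprm is opposite to that of the p53 targets that fell. Klk1b21 and Ly6f belong to families of closely related genes, and how reads were divided between relatives is not known here.

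**Figure D2:**
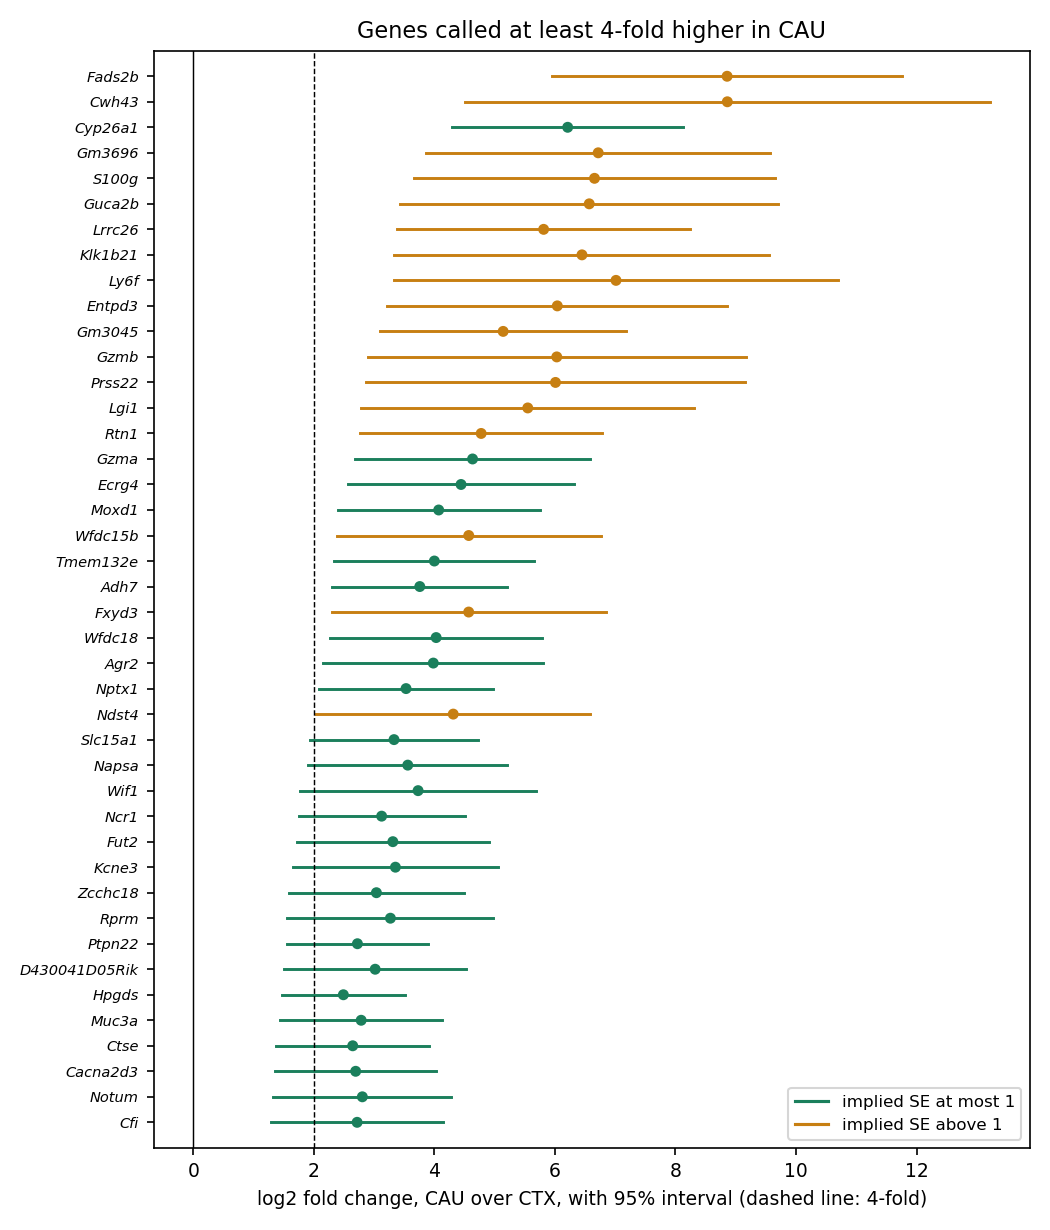
Log2 fold change of CAU over CTX (points) with the 95% interval from the implied SE (bars) for the 42 genes called at least 4-fold higher, ordered by the lower end. Every interval lies above 1 on the log2 scale, and 26 of the 42 lie wholly above the dashed 4-fold line. Because the genes were taken by their call and fold change, lower ends near or above 1 were largely fixed beforehand.

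A large fold alone did not pass the test. Of 423 genes at least 4-fold higher in CAU, 381 were not called, with a median implied SE of 2.16. Of 142 genes at least 4-fold lower, 140 were not called, with a median implied SE of 3.13. Among the uncalled genes at least 16-fold higher (51 in all), the smallest adjusted p values were those of Them5, an acyl-CoA thioesterase, at 6.53 (implied SE 1.82, DESeq2 adjusted p = 0.0651) and the neutrophil granule gene Ngp at 4.10 (implied SE 1.18, DESeq2 adjusted p = 0.0852). Among genes higher in CAU, the last inside the threshold were Notum and Ndst4 (both DESeq2 adjusted p = 0.0471) and Cldn1 (0.0486), and the first outside were F11r (0.0532), Calb1 (0.0591) and Mlc1 (0.0609). Among genes lower in CAU, Trim8 was the last inside (DESeq2 adjusted p = 0.0479) and Cntnap1 the first outside (0.0507).

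The same 42 genes are given beside the untreated group, which shares the CTX or the CAU libraries with this comparison. In CTX over UT their log2 fold changes ran from -7.52 to -1.79 (median -3.24, median implied SE 1.27), and 4 of the 42 passed the test there, where 1.29% of all genes did. In CAU over UT they ran from -0.07 to 2.69 (median 1.05, median implied SE 1.33), and 0 of the 42 passed (0 also at an unadjusted p under 0.05), where 0.0518% of all genes did. Cyp26a1 was at -4.30 in CTX over UT (implied SE 1.61) and at 1.92 in CAU over UT (implied SE 2.12) per the authors' deposited table, neither of which passed. Because the CTX libraries enter both the CAU over CTX and the CTX over UT values, these are set side by side and not as separate evidence.

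Genes were also grouped into 66 families by symbol. Counts of positive members are to be read against 52.3% of all genes tested being positive. At least 1 member passed the test in 23 families, and 43 families had none. Shares of members called are to be read against 0.442% of all genes called, 0.312% rising and 0.13% falling. Where a family has no call by DESeq2's adjusted p, the count of members with an unadjusted p under 0.05 is given for the families described, and 5.36% of all genes tested were under it. The 85 called genes split into 37 with a place in a named family and 48 outside, counting predicted genes as outside. The plot of family members shows 23 families picked to span immune, damage, ovarian, epithelial and matrix genes.

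**Figure D3:**
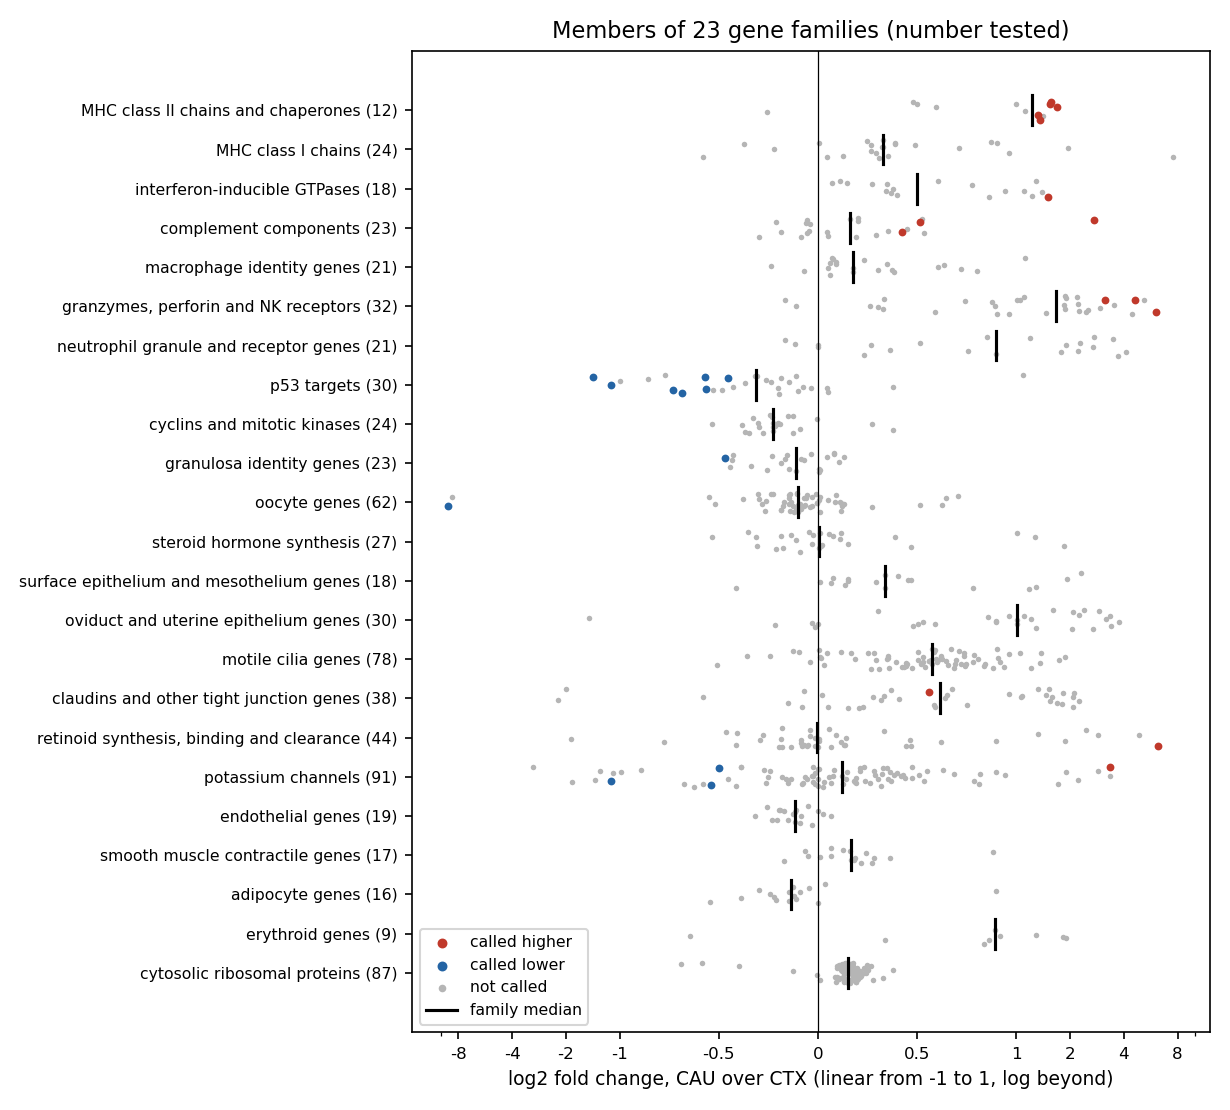
Log2 fold change of CAU over CTX for each tested member of 23 gene families (1 point a gene; the axis is linear from -1 to 1 and logarithmic beyond), with the family median as a bar. Of the 12 MHC class II genes 5 are called higher, and of the 30 p53 targets 7 are called lower.

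Genes of MHC class II presentation held the largest share of rises among the 66 families. Of 12 tested members 5 rose and none fell (41.7%, against 0.312% of all genes rising), 11 were positive, and the median log2 fold change was 1.22 against 0.00 over all genes. Among the alpha chains, the authors' deposited table has H2-Aa at 1.57 (implied SE 0.34, DESeq2 adjusted p = 0.00292) and H2-Ea at 1.70 (implied SE 0.32, DESeq2 adjusted p = 0.000286). Among the beta chains, H2-Ab1 was at 1.35 (implied SE 0.31, DESeq2 adjusted p = 0.00705) and H2-Eb1 at 1.54 (implied SE 0.36, DESeq2 adjusted p = 0.00776). The invariant chain Cd74 was at 1.32 (implied SE 0.26, DESeq2 adjusted p = 0.000565). These 5 rises were all between 2.49-fold and 3.25-fold, and their intervals overlap.

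The other 7 members did not pass the test. In the authors' deposited table, the peptide exchange factors were at 1.41 for H2-DMb1 (implied SE 0.53), 1.00 for H2-DMb2 (implied SE 0.42) and 0.50 for H2-DMa (implied SE 0.22). The coactivator Ciita was at 0.60 (implied SE 0.31). H2-Ob at 0.48 (implied SE 0.81), H2-Oa at 1.12 (implied SE 1.54) and H2-Eb2 at -0.26 (implied SE 1.73) were too imprecise to be read in either direction. In CTX over UT the family's median was -1.83 with 8 of 12 called, and in CAU over UT it was -0.58 with 0 called. Of all genes, 1.29% were called in CTX over UT and 0.0518% in CAU over UT.

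The called genes of this region were all class II genes. The class II chains H2-Ab1 (chr17:34263227-34269418), H2-Aa (chr17:34282744-34287823), H2-Eb1 (chr17:34305867-34316674) and H2-Ea (chr17:34341952-34344645) lie close together in GRCm38.p6, with the uncalled H2-Eb2 between H2-Eb1 and H2-Ea. The annotation of that build lists H2-Ea as a transcribed pseudogene, and whether this holds for BALB/c mice was not checked. Cd74 lies apart, on chromosome 18. Within 300 kb of H2-Aa, 27 genes were tested, of which 10 are class II genes with 4 called. The other 17 had a median of 0.02, ran from -1.58 to 0.39, and 0 were called, with 1 at an unadjusted p under 0.05. Interleaved with the class II genes, the immunoproteasome genes Psmb8 and Psmb9 were both at 0.39 (implied SE 0.31 and 0.35) and the peptide transporter Tap1 at 0.34 (implied SE 0.27) per the authors' deposited table. The bromodomain gene Brd2, between H2-Oa and H2-DMa, was at -0.13 (implied SE 0.08).

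**Figure D4:**
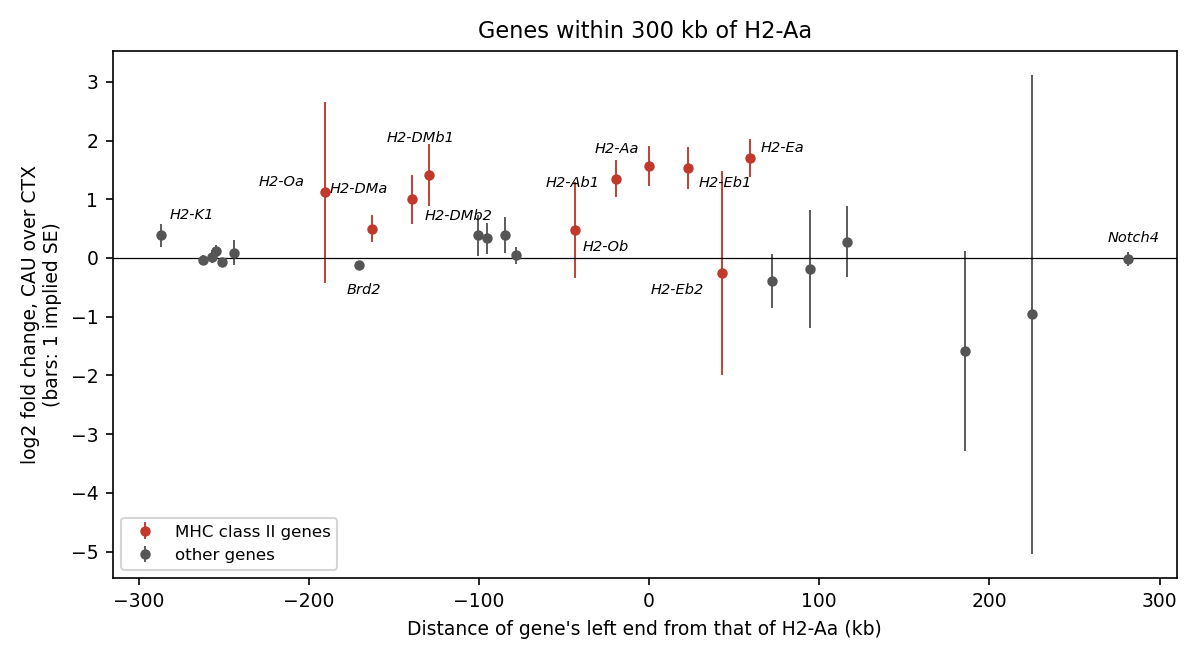
Log2 fold change of CAU over CTX with 1 implied SE (bars) for the 27 genes within 300 kb of H2-Aa, placed by the distance of each gene's left end from that of H2-Aa. The MHC class II genes (red) lie at or above 0.48 except H2-Eb2, and the other 17 genes (grey) lie at or below 0.39.

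MHC class I chains, which most cells carry, had a median of 0.33 over 24 members, with 21 positive and 0 called (2 at an unadjusted p under 0.05). H2-K1, in the authors' deposited table, was at 0.39 (implied SE 0.20). All 11 genes of class I peptide loading and the immunoproteasome were positive with a median of 0.22, and 0 were called, with 0 at an unadjusted p under 0.05. H2 genes vary between strains and several are close copies, so reads of BALB/c mice may be shared between members of the family.

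Interferon-inducible GTPases were all positive. Of 18 members 1 rose (5.56%, against 0.312% of all genes), and the median was 0.50. The member that rose was Tgtp1, a GTPase induced by interferon gamma. It was at 1.51 (implied SE 0.40, DESeq2 adjusted p = 0.0394) per the authors' deposited table, and its near-identical neighbour Tgtp2 was at 1.22 (implied SE 0.46, DESeq2 adjusted p = 0.452). Gbp10 at 1.38 (implied SE 0.53), Gbp8 at 1.29 (implied SE 0.46) and Iigp1 at 1.10 (implied SE 0.40) did not pass. Among 33 type I interferon stimulated genes the median was 0.23, with 25 positive and none higher by the test. Oas1d, which is also in the list of oocyte genes, was lower. At an unadjusted p under 0.05 were 12 of these 33 genes and 9 of the 18 GTPases, where 5.36% of all genes were.

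Complement genes held 3 rises and macrophage identity genes none. C1qb and C1qc, chains of the recognition molecule C1q that are made by tissue macrophages, rose by less than 2-fold. The authors' deposited table gives 0.51 for C1qb (implied SE 0.12, DESeq2 adjusted p = 0.0063) and 0.43 for C1qc (implied SE 0.11, DESeq2 adjusted p = 0.0171), while C1qa was at 0.52 (implied SE 0.16, DESeq2 adjusted p = 0.155). The complement inhibitor protease Cfi rose at 2.72 (implied SE 0.73, DESeq2 adjusted p = 0.0461). Those 3 of 23 complement genes are 13%, against 0.312% of all genes rising, and the family median was 0.16. Macrophage identity genes had a median of 0.18, with 19 of 21 positive and 0 called (5 at an unadjusted p under 0.05). Csf1r, the receptor that macrophages need to survive, was at 0.61 (DESeq2 adjusted p = 0.0844), Mertk at 0.23, Itgam at 0.64 and Cd68 at -0.07 in the authors' deposited table. C1q and class II genes passed the test and no macrophage identity gene did, and the difference between these lists was not tested. The part of macrophage number in the class II result was not tested.

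Cytotoxic lymphocyte genes included some of the largest rises. Of 32 granzyme, perforin and natural killer receptor genes 3 rose (9.38%, against 0.312% of all genes) and 30 were positive. The authors' deposited table has granzyme A, Gzma, at 4.63 (implied SE 0.99, DESeq2 adjusted p = 0.00216), granzyme B, Gzmb, at 6.03 (implied SE 1.60, DESeq2 adjusted p = 0.041) and the natural killer receptor Ncr1 at 3.12 (implied SE 0.70, DESeq2 adjusted p = 0.0049). The family median was 1.67 with a median implied SE of 1.33, and it was 0.74 over the 11 members with an implied SE of at most 1. Nkg7 at 2.18 (implied SE 1.08), Klrk1 at 2.20 (implied SE 0.82), Eomes at 3.51 (implied SE 1.26) and perforin, Prf1, at 1.47 (implied SE 1.03) did not pass. T cell genes had a median of 0.06 with 0 of 16 called, and B and plasma cell genes 0.27 with 0 of 9 called, and neither had a member at an unadjusted p under 0.05. Lck was at 0.05 (implied SE 0.31) and Cd8a at 0.03 (implied SE 0.34) per the authors' deposited table.

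No member of the neutrophil, chemokine ligand, interleukin or erythroid families was called. Neutrophil genes had a median of 0.90 with a median implied SE of 1.18 and 0 of 21 called (4 at an unadjusted p under 0.05), and a median of 0.31 over the 8 members with an implied SE of at most 1. Chemokine ligands had a median of 0.36 and interleukins with their receptors 0.15, each with 0 called (5 of 34 and 6 of 68 at an unadjusted p under 0.05). Erythroid genes had a median of 0.89 with 8 of 9 positive and 0 called (4 at an unadjusted p under 0.05), and Hba-a2, an alpha globin, was at 0.86 (implied SE 0.26, DESeq2 adjusted p = 0.123) per the authors' deposited table. The part of blood content in the granzyme and class II results was not tested.

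The genes that fell were led by p53 targets. Of 30 p53 targets tested 7 fell (23.3%, against 0.13% of all genes falling), none rose, 26 were negative, and the median was -0.31. The list of targets was drawn up with earlier results of these data known, which may have shaped this share. The p53-dependent gene Rprm is not in that list and rose at 3.27 (implied SE 0.87, DESeq2 adjusted p = 0.0441), as given above. The cell-cycle inhibitor Cdkn1a was the largest of these falls in the authors' deposited table, at -1.41 (implied SE 0.24, DESeq2 adjusted p = 6.35e-06), which makes it 2.66-fold lower in CAU. Eda2r, an ectodysplasin receptor gene on chromosome X, was at -1.11 (implied SE 0.18, DESeq2 adjusted p = 4.84e-06). Psrc1, a spindle protein, was at -0.73 (implied SE 0.15) and Sesn2, a stress-induced inhibitor of mTORC1, at -0.69 (implied SE 0.15). The RNA-binding Zmat3 at -0.57 (implied SE 0.09), the spindle-associated Ckap2 at -0.56 (implied SE 0.15) and the cyclin Ccng1 at -0.45 (implied SE 0.11) completed the 7. Intervals of all 7 lie below 0 and none reaches 4-fold.

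Members with well-known roles in cell death did not pass. Bbc3, which encodes PUMA, was at -0.77 (implied SE 0.27), Pmaip1, which encodes NOXA, at -0.86 (implied SE 0.54) and Bax at -0.15 (implied SE 0.09) per the authors' deposited table. Mdm2, the ubiquitin ligase that degrades p53, was at -0.20 (implied SE 0.08, DESeq2 adjusted p = 0.511), and the p53 gene itself, Trp53, at -0.07 (implied SE 0.10). The 4 positive members were Dcxr at 1.10 (implied SE 0.74), Perp at 0.38 (implied SE 0.22), Sesn1 and Rrm2b (both 0.05). In CTX over UT the same family had a median of 0.32 with 9 called, and in CAU over UT 0.02 with 0 called. The shares of all genes called there were 1.29% and 0.0518%. Cdkn1a was at 1.99 in CTX over UT and at 0.59 in CAU over UT, and Eda2r at 1.68 and 0.58, both as the authors' deposited table gives them.

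**Figure D5:**
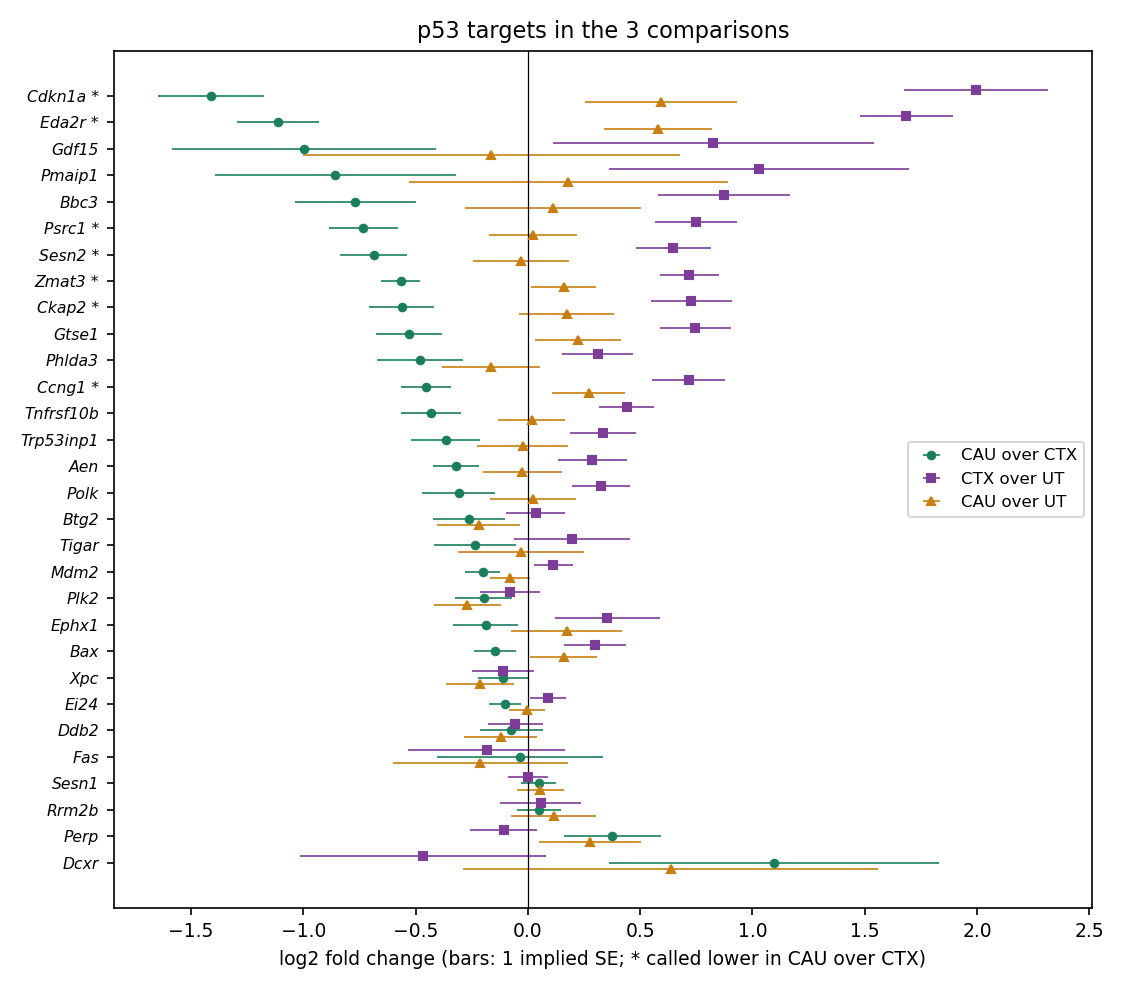
Log2 fold change with 1 implied SE for 30 p53 targets in CAU over CTX (circles), CTX over UT (squares) and CAU over UT (triangles), ordered by CAU over CTX, with an asterisk on the 7 called lower in CAU over CTX. The 7 lie between -1.41 and -0.45 in CAU over CTX, and between 0.65 and 1.99 in CTX over UT, with which the comparison shares its CTX libraries.

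Other damage and cell-cycle families held 1 called gene among them, Cdkn1a again, as 1 of 8 cyclin-dependent kinase inhibitors. In that family Cdkn1b was at 0.01 (implied SE 0.09) and Cdkn2a, a widely used senescence marker, at 0.33 (implied SE 1.12) per the authors' deposited table, the latter too imprecise to be read. Secretory genes of senescence had a median of 0.11 (0 of 23 called), the BCL2 family 0.06 (0 of 24) and Fanconi and crosslink repair genes -0.04 (0 of 29), with 3, 2 and 0 members at an unadjusted p under 0.05. Cyclins and mitotic kinases had a median of -0.23 with 22 of 24 negative and 0 called, and 8 at an unadjusted p under 0.05. Top2a was at -0.30 (implied SE 0.10, DESeq2 adjusted p = 0.214) and Mki67 at -0.33 (implied SE 0.10, DESeq2 adjusted p = 0.13) per the authors' deposited table. DNA replication genes were centred on -0.01 (0 of 47 called, 0 at an unadjusted p under 0.05).

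Families of ovarian cell genes had medians near 0. Among 23 granulosa identity genes 1 fell (4.35%), the inhibin and activin subunit Inhbb, at -0.47 (implied SE 0.09, DESeq2 adjusted p = 0.000565) per the authors' deposited table. The family median was -0.11. The aromatase Cyp19a1 was at 0.00 (implied SE 0.30), Amh at 0.08 (implied SE 0.14), Fshr at -0.17 (implied SE 0.15) and Foxl2 at -0.16 (implied SE 0.14). Steroid hormone synthesis genes had a median of 0.00 (0 of 27 called), theca and stroma genes -0.01 (0 of 18) and luteal genes 0.15 (0 of 20; 0.09 over the 16 with an implied SE of at most 1), with 4, 1 and 4 members at an unadjusted p under 0.05. The table holds differences and no levels, so the labelled tissue could be checked only by these genes having values, and each of those named had an implied SE of at most 0.30.

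Oocyte genes had a median of -0.10, and 1 of 62 fell (1.61%). That member was Oas1d, an oocyte-expressed gene of the oligoadenylate synthetase cluster on chromosome 5, at -9.09 (implied SE 2.24, DESeq2 adjusted p = 0.0171) per the authors' deposited table, 545-fold lower with a lower end of 25.9-fold. Beside the untreated group it was at 0.09 in CTX over UT and at -9.0 in CAU over UT, neither of which passed. Other genes of that cluster, chosen after their values were seen, did not pass: Oas1h was at -8.70 (implied SE 3.91), Oas1f at -3.36 (implied SE 2.48), Oas1a at -2.47 (implied SE 0.74, DESeq2 adjusted p = 0.123), Oas1c at -0.27 (implied SE 0.19) and Oas1e at -0.04 (implied SE 0.17). Gdf9 at -0.07 and Zp3 at -0.11 (both with an implied SE of 0.15), 2 other oocyte genes, did not pass in the authors' deposited table. The members of the Oas1 cluster are close copies, and how reads were shared between them is not known here.

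Ano3, a calcium-dependent lipid scramblase of the anoctamin family, was at -1.86 (implied SE 0.39, DESeq2 adjusted p = 0.00165), and Kcnd2, a voltage-gated potassium channel, at -1.12 (implied SE 0.20, DESeq2 adjusted p = 2.22e-05) per the authors' deposited table. Of 91 potassium channel genes 3 fell (Kcnd2, Kcnk2 at -0.54 and Kcnt1 at -0.50) and Kcne3 rose, around a family median of 0.12. That is 4.4% called, against 0.442% of all genes. Ces2e, a carboxylesterase, was at -0.83 (implied SE 0.21), 1 of 17 members of a family written after the calls were seen, of which 12 were positive with a median of 0.65, while the 5 with an implied SE of at most 1 were all negative with a median of -0.20. Dglucy, a D-glutamate cyclase, was at -0.68 (implied SE 0.16), Mfsd2a, a lysophospholipid transporter, at -0.63 (implied SE 0.14) and Bpifb4 at -0.60 (implied SE 0.10). The predicted gene Gm40453 was at -5.01 (implied SE 1.01), the other fall over 4-fold.

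In the oviduct, cilia, surface epithelium and tight junction families most members were positive, and Cldn1 alone passed the test. Oviduct and uterine epithelium genes had a median of 1.01 with 26 of 30 positive and 0 called (9 at an unadjusted p under 0.05), and 0.59 over the 13 members with an implied SE of at most 1. Motile cilia genes had a median of 0.57 with 72 of 78 positive and 0 called (1 at an unadjusted p under 0.05), and 0.35 over the 40 members within that SE limit. Surface epithelium genes had a median of 0.34 with 17 of 18 positive and 0 called (6 at an unadjusted p under 0.05). Claudins and other tight junction genes had a median of 0.62 with 32 of 38 positive, and Cldn1 alone rose (2.63%), at 0.56 (implied SE 0.15, DESeq2 adjusted p = 0.0486) per the authors' deposited table. The 2 most precise oviduct and uterine members were Lamc3 at -0.01 (implied SE 0.20) and Emx2 at 0.30 (implied SE 0.22). Those of the cilia family were Cfap97 at 0.01 (implied SE 0.10) and Cfap410 at -0.10 (implied SE 0.13). Larger values were found in genes picked after values were seen. The gland regulator Pax2 was at 2.39 (implied SE 0.69, DESeq2 adjusted p = 0.096), its relative Pax8 at 2.25 (implied SE 1.00) and the oviduct glycoprotein Ovgp1 at 3.38 (implied SE 1.22) per the authors' deposited table. The surface markers Upk3b at 0.40 (implied SE 0.16) and Msln at 0.45 (implied SE 0.40) had smaller values than these.

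Called members were found in some small epithelial families. Wfdc18 and Wfdc15b rose among 25 WAP-domain genes (8%, against 0.312% of all genes). Muc3a, a membrane mucin, rose at 2.78 (implied SE 0.69, DESeq2 adjusted p = 0.0171) as 1 of 14 mucins. Wfdc15b was at 4.57 (implied SE 1.12) per the authors' deposited table. Ctse, a cathepsin of epithelial and antigen-presenting cells, rose at 2.64 (implied SE 0.65, DESeq2 adjusted p = 0.0164), the 1 call among 18 cathepsins. Of 30 markers of oviduct and uterine epithelium, 26 lie in the same direction as the large rises and 4 do not. The part of that tissue in the large rises was not tested.

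In the list of 44 retinoid genes no other member than Cyp26a1 passed the test. Adh7, which can oxidise retinol, is not in that list and rose, as given above. Of the 44 tested 1 rose (2.27%), and 22 were positive and 22 negative. The other retinoic acid hydroxylases were at -0.41 for Cyp26b1 (implied SE 0.52) and 4.86 for Cyp26c1 (implied SE 2.78) per the authors' deposited table. The synthesis enzymes Aldh1a1 at -0.18 (implied SE 0.18) and Aldh1a2 at -0.42 (implied SE 0.13, DESeq2 adjusted p = 0.129), the receptor Rarb at -0.20 (implied SE 0.37) and the transporter Stra6 at -0.08 (implied SE 0.23) did not pass. Among 49 WNT pathway genes the extracellular antagonists Notum, at 2.80 (implied SE 0.75), and Wif1 rose (4.08%, against 0.312% of all genes). The WNT family median was 0.24 (0.09 over the 37 with an implied SE of at most 1), and Axin2, a general WNT target, was at -0.14 (implied SE 0.12).

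The rise with the smallest adjusted p was that of Col9a2, a collagen IX chain on chromosome 4, at 1.04 (implied SE 0.12, DESeq2 adjusted p = 1.51e-14) per the authors' deposited table. It was the 1 call among 44 collagen chains, whose median was -0.09. Col1a1 was at -0.24 (implied SE 0.13) and Col3a1 at -0.14 (implied SE 0.14). Of 30 immediate early genes 1 rose (3.33%), the transcription factor Klf2, at 0.69 (implied SE 0.14, DESeq2 adjusted p = 0.000622), while Fos was at -0.17 (implied SE 0.21) and Egr1 at 0.11 (implied SE 0.16). Glucocorticoid-induced genes, a family written after the calls were seen, had 2 rises, Tsc22d3 at 0.64 (implied SE 0.16) and Zbtb16 at 0.74 (implied SE 0.19). The fall of Mfsd2a named above was also in it. Of its 20 members 15% were called, against 0.442% of all genes, a share that the late choice partly fixed. In all 18 were positive and 2 negative, with a median of 0.20 and 7 at an unadjusted p under 0.05. The best-known member of that family, Fkbp5, was at 0.01 (implied SE 0.06) per the authors' deposited table.

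The structural and housekeeping families given here held no called gene. Cytosolic ribosomal protein genes had a median of 0.15 with 82 of 87 positive and 0 called. Of these, 23 were at an unadjusted p under 0.05, where 5.36% of all genes were. In CTX over UT their median was -0.16 and 18 were called, where 1.29% of all genes were. Mitochondrial ribosomal and respiratory chain genes were both centred on 0.04 with 0 called (0 and 1 at an unadjusted p under 0.05). Endothelial genes had a median of -0.12 (0 of 19 called), adipocyte genes -0.13 (0 of 16) and smooth muscle genes 0.17 (0 of 17), with 2, 1 and 3 members at an unadjusted p under 0.05. Olfactory and vomeronasal receptor genes, which an ovary hardly expresses, had a median of 0.00 with a median implied SE of 4.08 and 0 of 284 called (1 at an unadjusted p under 0.05).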

How the data were processed

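RNA-seq libraries of ovarian tissue were made with a SMARTer mRNA kit, per the labels' protocols. Per the submitters' processing notes, the authors used build GRCm38.p6 and the tools RSEM 1.3.1, HISAT2, DESeq2 1.44.0 and Bowtie2, whose roles and order are not given there. Per the file headers, the deposited table holds DESeq2's q-value, p-value and log2 fold change for 3 pairs of groups. Computed by the authors over all genes, the q-value (named adjusted p in the text) lay within 2.19e-05 of a Benjamini-Hochberg adjustment. The table has no values per library, so the depth is unknown, the authors' DESeq2 test stood in for a count test of the libraries, and leaving out libraries was not possible. The 3 columns share 1 convention, since they added up within 0.01 of a constant in 18772 of 18773 genes.

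Dividing each log2 fold change by the z of its 2-sided p gave the implied SE, on the assumption of a Wald test without shrinkage, and 95% intervals are normal. The arithmetic of these steps was checked on data simulated under the same assumption. That check could not show whether the deposited values meet it. Families were formed by symbol. Named were the 15 largest rises and 10 largest falls with an implied SE of at most 1 and no predicted symbol. Also named were the 5 less precise rises with the highest lower ends and the 2 uncalled rises over 16-fold with the lowest p. In each family the rule was up to 4 called members or the 2 most precise, but many of the latter are not named in the results. Those left out include H2-M3 at 0.04, H2-T23 at 0.33, Csf3r at -0.11, Cxcr2 at 0.23 and Csf1 at 0.06. Genes beyond these were chosen for their known role or position after values were seen. Members, families and lists were chosen with earlier results of these data known, and 9 families were added after the calls were seen. Of 19245 gene IDs, 19188 matched RefSeq GRCm38.p6, which gave positions and promoters. H2-Ab1, H2-Ea, Cd74 and Ciita are named only. Tools were Python 3.11.15, pandas 2.3.3, numpy 2.4.6, matplotlib 3.10.9 and scipy 1.17.1.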

Additional observations from a re-analysis of the deposited data

How the results depend on the processing

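Against the 85 genes called (60 higher and 25 lower), a threshold of 0.01 left 43 (29 and 14) and 0.10 gave 117 (78 and 39). Asking for a 2-fold change as well left 55 (49 and 6), so most falls rest on small changes. Setting the median of all genes to 0 gave 88 (59 and 29), 84 of them shared, and Cldn1 lost its call. Testing only genes with an implied SE of at most 1 gave 64 (42 and 22), without Trim8 and Cldn1. With a limit of 0.5, chosen after seeing the data, 36 passed (15 and 21), and Hey2, Trim8, Mndal, Cldn1 and Tgtp1 lost their calls. The larger number of rises than of falls therefore rests on genes with an implied SE above 0.5. Scaling the z values to a spread of 1 (theirs was 0.839) gave 242 (156 and 86), 85 of them shared. Without predicted genes 80 were called.

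Of the 42 rises of at least 4-fold, 26 had a lower end of at least 4-fold, 25 an implied SE of at most 1, and 19 an adjusted p under 0.01. With 0.10 there were 53. Families with a call numbered 23, and 20, 22 and 32 with the SE limit of 1, the centring and the 9 later families. Over members with an implied SE of at most 1, the medians of steroid synthesis (to -0.02) and of solute carriers (to -0.00) changed sign, both from 0.00, out of 66 families. No paired analysis was possible because the table holds no values per library, and leaving out each replicate was not run for the same reason.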
